A study of Mus musculus with 6 samples.

Results

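The T cell receptor beta segments are the V, D, J and constant genes of the Trb locus on mouse chromosome 6. They were taken here as every row of the expression table whose symbol begins Trbv, Trbd or Trbj, or is Trbc1 or Trbc2, and whose mean over the 6 libraries was above 1 normalised count. This gave 43 of 26181 rows: 25 V segments, 2 D segments, 14 J segments and the 2 constant genes. The table held 45 Trb rows, and the 2 left out were Trbv6 with a mean of 0.84 and Trbv25 with a mean of 0.33; the lowest member inside the limit was Trbv22 with a mean of 2.27. Libraries came from splenic CD8+ T cells of C57BL/6 mice, labelled WT, that received CDAHFD (3 libraries) or ND (3 libraries) for 7 weeks from 6 weeks of age. CDAHFD commonly stands for a choline-deficient, amino acid-defined high-fat diet used to induce steatohepatitis in mice, and the labels describe these animals as models of metabolic steatohepatitis; ND is the comparison diet and is not spelled out in the labels. The labels name no transgene or deletion in either group. The labels do not say how the cells were purified or whether each library came from a separate animal, so p-values measure only the spread between these libraries, which may be technical.

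The beta chain of the alpha beta T cell receptor is built in the thymus by joining 1 V, 1 D and 1 J segment, and the joined exon is then spliced to Trbc1 or Trbc2. The D1 and J1 segments lie before Trbc1 and the D2 and J2 segments before Trbc2, so a chain that uses a J2 segment carries the Trbc2 constant region. Each mature T cell makes 1 productive beta chain as a rule, and its offspring keep it. The use of V and J segments across a population therefore describes its receptor repertoire, while the summed level describes how much beta chain transcript the sample holds. Read counts per gene record V use and J use separately and do not record which V was joined to which J, nor the sequence of the junction.

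The 6 libraries held between 25314988 and 28067393 reads. Trb genes took 0.0816 to 0.0931% of the reads in CDAHFD libraries, against 0.118 to 0.128% in ND libraries. The summed markers of CD8 T cells (Cd8a, Cd8b1, Cd3e, Cd3d, Cd3g and Trac) came to 77087 to 78788 normalised counts in CDAHFD libraries and 96096 to 97200 in ND libraries. Transcripts of other spleen cells were also present and moved with the diet. The 8 macrophage markers (such as Csf1r and C1qa) summed to 105590 to 115946 in CDAHFD libraries and 11369 to 12348 in ND libraries, and 5 of 5 erythroid markers such as Hba-a1 were detected at 6856 to 7115 against 659 to 718. Sums of 5 markers each were 65652 to 69366 in CDAHFD and 32307 to 32983 in ND libraries for plasma cells, 4700 to 5484 against 1625 to 1634 for neutrophils, 13399 to 14120 against 18139 to 18836 for B cells, and 5184 to 5750 against 6651 to 7049 for dendritic cells. Ighm (plasma cells), Itgax (dendritic cells), and Mpo and Elane (neutrophils) were not called. The other markers of these lists moved with their sums, among them Igha, with a mean of 27056 in CDAHFD and 965 in ND libraries. Markers of other lymphocytes that can hold Trb transcripts were low beside those of CD8 T cells: Cd4 averaged 499 ± 21.6 in CDAHFD and 620 ± 82.2 normalised counts in ND libraries (SD, n = 3 each), the 5 CD4 T cell markers summed to 1841 to 1926 against 1414 to 1566, the 5 NK cell markers to 2926 to 2977 against 2308 to 2448, and the gamma delta markers to 153 to 194 against 248 to 289, with Trgc1 and Trgc2 not among the rows used. Of the CD4 T cell markers Cd4 fell, Cd40lg was not called, and the rest rose. Foxp3 averaged 206 in CDAHFD and 114 in ND libraries, Ctla4 323 against 188, and Zbtb7b 822 against 531. The NK cell markers did not move together. Eomes made up most of their sum, with a mean of 2248 in CDAHFD and 2025 in ND libraries, and Klre1 rose, with 511 against 160. Ncr1 averaged 34.0 in CDAHFD and 49.6 in ND libraries, and Ncr1, Klrb1c and Klra8 were not called. The part of any of these other cells in the differences below was not tested.

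The J segments are short enough to be shown whole, and 6 of them carry the results that follow. Trbj2-7 had the largest mean share. Trbj1-1 and Trbj2-1 were the 2 whose share of J counts did not overlap between the diets. Trbj1-6, Trbj1-7 and Trbj2-6 are the 3 that lack the searched motif. The sequences were read from GENCODE M21 transcripts (build GRCm38/mm10, plus strand, 5′ to 3′), and capitals mark TTNGG followed, after any 4 bases, by GG, the letters behind the conserved core of a functional J region.
Trbj2-7 (chr6:41543810-41543856): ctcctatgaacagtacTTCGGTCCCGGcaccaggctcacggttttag
Trbj1-1 (chr6:41533864-41533911): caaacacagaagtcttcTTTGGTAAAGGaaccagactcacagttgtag
Trbj2-1 (chr6:41542754-41542803): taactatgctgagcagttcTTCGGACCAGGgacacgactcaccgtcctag
Trbj1-6 (chr6:41535554-41535606): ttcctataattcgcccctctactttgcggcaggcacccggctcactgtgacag
Trbj1-7 (chr6:41535642-41535687): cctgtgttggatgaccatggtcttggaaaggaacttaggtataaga
Trbj2-6 (chr6:41543598-41543645): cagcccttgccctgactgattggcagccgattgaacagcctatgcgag
The motif was found in 11 of the 14 J members, on the forward strand in all 11 and on the reverse strand in 0. In 50-base windows from the middle of 21822 protein-coding transcripts it occurred in 0.765% on the forward strand and in 1.86% on either strand. Trbj2-6 is annotated as a pseudogene, while Trbj1-6 and Trbj1-7 are annotated as J genes. The search allowed no mismatch, and Trbj1-6 misses the motif by a single base. Lacking the motif therefore does not mark a J segment as nonfunctional. Trbj1-7 starts 35 bases after the end of Trbj1-6.

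For V segments the last 30 bases are shown, the end that is joined to D and J, for the segments whose share of V counts was called different between the diets (Trbv12-2, Trbv13-3 and Trbv15) beside their nearest relatives (Trbv12-1, Trbv12-3 and Trbv13-2). Capitals mark TGTGCNNGC, which begins with the codon of the conserved cysteine and was chosen after the sequences were seen.
Trbv12-2 (chr6:41119335-41119364): tctgccgtgtacttcTGTGCCAGCtctctc
Trbv12-1 (chr6:41114038-41114067): tctgctatgtacttcTGTGCCAGCtctctc
Trbv12-3 (chr6:41128047-41128076): actttactgtgtactttTGTGCCAGCtcac
Trbv13-3 (chr6:41130556-41130585): cagctgtatatttcTGTGCCAGCagtgatg
Trbv13-2 (chr6:41121803-41121832): catcagtgtacttcTGTGCCAGCggtgatg
Trbv15 (chr6:41141629-41141658): agctgtgtatctgTGTGCCAGCagtttagc
The motif was present in this window in 20 of 25 V members, against 0.133% of 30-base windows from the same 21822 transcripts on the forward strand and 0.33% on either strand. Over their aligned transcripts, Trbv12-1 and Trbv12-2 were 88.31% identical and Trbv13-2 and Trbv13-3 were 90.59% identical. The longest run of bases shared by a pair was 44 for Trbv12-1 and Trbv12-2, 50 for Trbv13-2 and Trbv13-3 and 53 for Trbv12-2 and Trbv12-3. How the counting treated reads that match 2 segments is not given in the sources used here, so the split within the Trbv12 and Trbv13 families is uncertain.

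Trbc1 and Trbc2 encode the constant region that anchors the chain in the membrane and pairs with the CD3 subunits. Their first exons of 375 bases differed at 1 base (99.7% identical), which is shown in capitals at the end of a 60-base stretch, bases 201 to 260 of the exon.
Trbc1 (chr6:41538418-41538477): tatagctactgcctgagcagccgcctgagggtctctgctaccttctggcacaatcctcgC
Trbc2 (chr6:41546930-41546989): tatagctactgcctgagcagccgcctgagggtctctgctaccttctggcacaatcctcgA
The longest identical run of the pair within this exon was 259 bases, so most reads from it match both genes and the division of counts between the 2 genes depends on how the authors' counting treated such reads.

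Both constant genes were lower in CDAHFD cells. Trbc1 had 6399, 6261 and 6325 normalised counts in CDAHFD libraries, against 8504, 9194 and 8779 in ND libraries. The diets did not overlap, and the CDAHFD libraries lay close together. Trbc1 fell by 0.48 on the log2 scale (SE 0.04, limma adjusted p = 3.66e-11), where the log2 fold change is CDAHFD over ND on log2(normalised count + 1). Trbc2 had 10884, 11891 and 8900 normalised counts in CDAHFD libraries, against 14558, 15601 and 13341 in ND libraries, again with no overlap but with a wider spread. It fell by 0.47 (SE 0.13, limma adjusted p = 0.0487). That call was lost when CDAHFD library 1 or any of the 3 ND libraries was left out (adjusted p 0.056 to 0.123), and also with edgeR on recovered reads (adjusted p = 0.0501), with no filter on low genes (0.0759) and with TMM scaling (0.0524). Trbc2 made up 62.3 ± 3.57% of the Trbc counts in CDAHFD and 62.1 ± 1.57% in ND libraries (SD, n = 3 each; exact permutation p = 0.9). In these bulk samples, fewer T cells and less beta chain RNA per T cell cannot be told apart.

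The V segments, which encode most of the variable domain, were lower as a class. Summed V counts were 5561, 5029 and 4861 in CDAHFD libraries, against 6897, 7253 and 7096 in ND libraries. All CDAHFD sums lay below all ND sums, with means of 5150 ± 366 and 7082 ± 178 normalised counts (SD, n = 3 each), a ratio of 0.727. The exact two-sided permutation test gave p = 0.1, the smallest that 3 against 3 libraries allow. Of the 21 V members with a mean of at least 10, which were tested, 15 fell and 0 rose by limma, with a median log2 fold change of -0.42. Over all 15819 genes tested, 47.1% were called, 22.5% lower and 24.6% higher, and the median was -0.01. Of all 25 V members, 23 had a lower mean in CDAHFD cells, and in 17 every CDAHFD library lay below every ND library; among all genes tested the same held for 26.5%.

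Among the 10 most used V segments, 9 fell in level. Trbv13-2, known under the older name Tcrb-V8.2, had 585, 565 and 520 normalised counts in CDAHFD libraries, against 841, 778 and 787 in ND libraries, and fell by 0.53 (SE 0.07, adjusted p = 2.13e-07). Trbv16 had 535, 527 and 529 in CDAHFD libraries, against 680, 754 and 812 in ND libraries, and fell by 0.49 (SE 0.07). Both pairs of groups were clear of each other. Trbv12-2, older name Tcrb-V5.1, had 515, 382 and 338 normalised counts in CDAHFD libraries, against 736, 740 and 738 in ND libraries. It fell by 0.86 (SE 0.13, adjusted p = 2.32e-04), and its CDAHFD libraries spread far more than its ND libraries. Trbv14, Trbv3, Trbv1, Trbv12-1, Trbv13-1 and Trbv17 fell by 0.41, 0.36, 0.34, 0.47, 0.42 and 0.48 in that order. Trbv13-3, the remaining one of the 10, averaged 277 ± 15.1 in CDAHFD and 315 ± 16.3 normalised counts in ND libraries, a log2 fold change of -0.19 (SE 0.09) that was not called (adjusted p = 0.0986). Of the less used V segments, Trbv2, Trbv19, Trbv20, Trbv26, Trbv29 and Trbv30 fell, by 0.40, 0.42, 0.59, 0.51, 0.45 and 0.85. The call of Trbv30, at 13.3 to 45.3 normalised counts, was lost without CDAHFD library 2, ND library 2 or ND library 3. Trbv4, Trbv15, Trbv23, Trbv24 and Trbv31 had log2 fold changes of -0.71 to -0.18 and were not called, although Trbv15 was called without CDAHFD library 1.

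**Figure D1:**
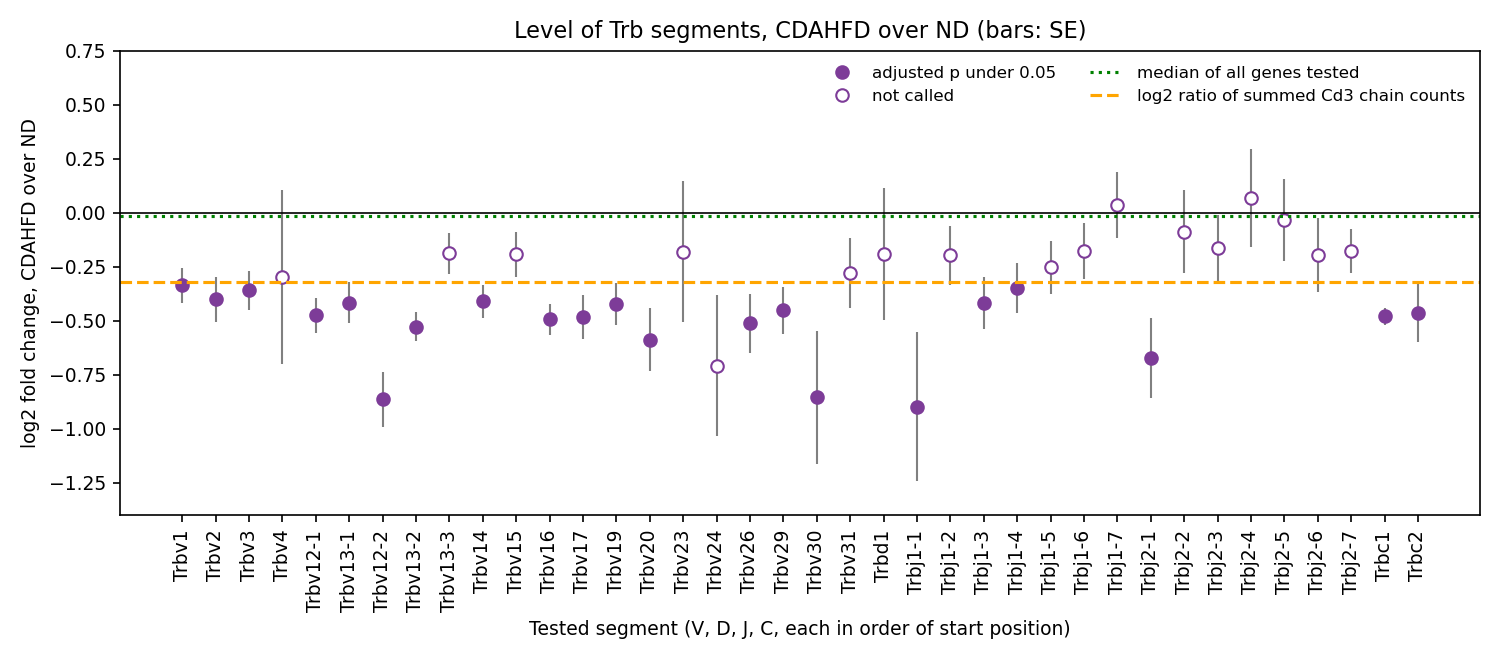
Log2 fold change in level, CDAHFD over ND, of the 38 tested beta chain segments (points, with SE bars), ordered within V, D, J and C by start position on chromosome 6. Filled points passed an adjusted p of 0.05. The V segments lie at or below -0.18 and most of them near the median of -0.42, the J segments scatter around a median of -0.19, and the dashed line marks the log2 ratio of the summed Cd3 chains at -0.32.

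The J segments, which encode the end of the variable domain, were also lower in sum, by less. Summed J counts were 1472, 1544 and 1524 in CDAHFD libraries, against 1886, 1792 and 1673 in ND libraries. The groups did not overlap, and the means were 1513 ± 37.1 and 1783 ± 107 normalised counts (SD, n = 3 each), a ratio of 0.848 (exact permutation p = 0.1, the smallest possible). By limma 4 of 14 J segments fell and 0 rose, and their median was -0.19. That share is near the 22.5% of all genes tested that were called lower. Trbj1-1 fell by 0.90 (SE 0.34, adjusted p = 0.0329), Trbj2-1 by 0.67 (SE 0.19), Trbj1-3 by 0.42 (SE 0.12) and Trbj1-4 by 0.35 (SE 0.12). Trbj1-1 had 10.6, 12.3 and 11.6 normalised counts in CDAHFD libraries, against 17.7, 28.6 and 21.7 in ND libraries. It was the least abundant J member, and its call was lost in 4 of 6 fits that left out a library, those without CDAHFD library 1 or 3 or without ND library 2 or 3 (adjusted p 0.057 to 0.161), and with DESeq2 (adjusted p = 0.0752). Trbj2-1 had 40.2, 54.0 and 56.1 in CDAHFD libraries, against 79.2, 78.6 and 81.1 in ND libraries, and was called in all 6 such fits. The call of Trbj1-3 was lost without ND library 1, and that of Trbj1-4 without CDAHFD library 2 or ND library 1. In 7 of 14 J members every CDAHFD library lay below every ND library, against 26.5% of all genes tested.

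The D segments are the short stretches between V and J and are 12 and 14 bases long in the annotation. Trbd1 averaged 19.4 ± 2.20 in CDAHFD and 22.4 ± 3.86 normalised counts in ND libraries (SD, n = 3 each), with overlap and a log2 fold change of -0.19 (SE 0.30, adjusted p = 0.641). Trbd2 averaged 5.64 ± 2.40 in CDAHFD and 6.35 ± 3.17 normalised counts in ND libraries and was below the mean set for testing.

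The decrease was set beside that of transcripts for the chains with which the beta chain is assembled, and for CD8. Summed counts of Cd3d, Cd3e, Cd3g and Cd247, the signalling chains of the receptor complex, averaged 26551 ± 390 in CDAHFD and 33131 ± 404 in ND libraries (SD, n = 3 each), a ratio of 0.801. By limma, Cd3d (-0.41), Cd3g (-0.46), Cd247 (-0.30), Trac (-0.30), Cd8a (-0.24) and Cd8b1 (-0.42) fell on the log2 scale, while Cd3e had -0.09 and was not called (adjusted p = 0.0801). Per Cd3 count there were 0.194 ± 0.0118 V counts in CDAHFD and 0.214 ± 0.00628 in ND libraries, 0.0570 ± 0.00184 against 0.0538 ± 0.00263 J counts, and 0.636 ± 0.0483 against 0.704 ± 0.0353 constant region counts. Each of these 3 ratios overlapped between the diets (exact permutation p = 0.2 each). When the libraries were scaled to the summed Cd3 counts, which moved the median of all genes to 0.30, 5 of 38 members were called in place of 21, while 65.9% of all genes tested were called, 61.1% higher and 4.79% lower. Trbv12-2 (-0.55), Trbv13-2 (-0.21), Trbv16 (-0.17) and Trbc1 (-0.16) were lower in that fit, and Trbj1-7 (0.35) was higher; with this scaling the log2 ratio of summed J counts turned to 0.08.

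**Figure D2:**
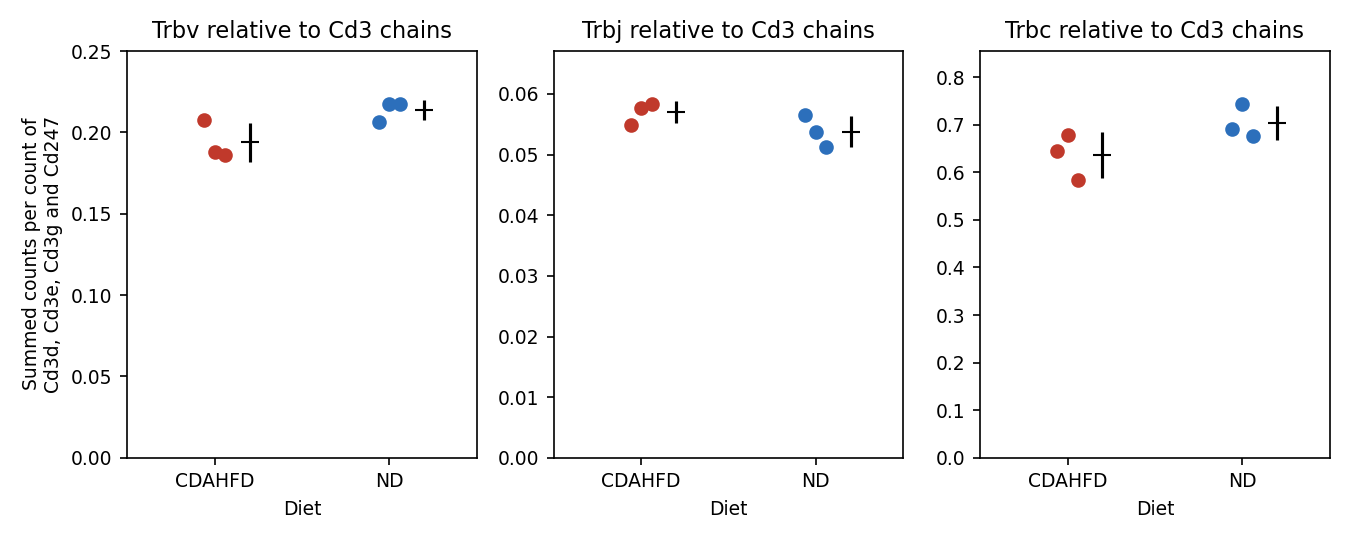
Normalised counts of V, J and constant genes per count of the 4 Cd3 chains in each library (points) with the mean and SD of 3 libraries, CDAHFD on the left and ND on the right of each panel; each axis starts at 0. The mean V ratio is 0.194 in CDAHFD and 0.214 in ND libraries, the mean J ratio 0.0570 and 0.0538, and the mean constant region ratio 0.636 and 0.704, with overlapping points in each panel.

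The classes were also set against each other. There were 0.306 ± 0.0252 V counts per constant region count in CDAHFD and 0.304 ± 0.0148 in ND libraries (exact permutation p = 0.9). There were 0.0901 ± 0.00865 J counts per constant region count in CDAHFD and 0.0766 ± 0.00482 in ND libraries, without overlap (exact permutation p = 0.1, the smallest possible). V counts per J count were 3.78, 3.26 and 3.19 in CDAHFD libraries, against 3.66, 4.05 and 4.24 in ND libraries, which overlapped (exact permutation p = 0.2). Whether a read that spans V, J and the constant exon was counted for 1 of the genes, for each or for none is not given in the sources used here, and the labels name a whole-RNA and an mRNA kit without saying which library was made with which.

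Use of V segments was uneven. Trbv13-2 took 10.8 ± 0.38% of V counts in CDAHFD and 11.3 ± 0.768% in ND libraries (SD, n = 3 each). Trbv16 took 10.3 ± 0.648% in CDAHFD and 10.6 ± 0.806% in ND libraries. Trbv14, Trbv3, Trbv1 and Trbv12-1 each took between 6.33 and 7.96% in all 6 libraries. Over the 6 libraries, the range of shares of Trbv13-2 overlapped that of Trbv16, and the ranges of Trbv14, Trbv3, Trbv1 and Trbv12-1 overlapped each other, so these segments have no clear order among themselves. The 10 segments with the largest shares, which after these 6 and Trbv12-2 include Trbv13-1, Trbv17 and Trbv13-3, were also the 10 largest when counts were divided by exon length. Per 100 bases of exon, Trbv13-2 averaged 199.8 normalised counts over the 6 libraries and Trbv16 averaged 161. At the other end, 8 V members had a mean under 30 normalised counts, among them the 3 annotated pseudogenes Trbv12-3, Trbv22 and Trbv24. Pseudogenes together took 0.422 ± 0.0592% of V counts in CDAHFD and 0.437 ± 0.0422% in ND libraries (exact permutation p = 0.7). Trbv21 had 0 reads in CDAHFD library 1, which allows a share of V counts of up to 0.057% there at 3 reads, and Trbv22 had 0 reads in ND library 2, which allows up to 0.0422%. Trbv4 and Trbv5 overlap the span of the long noncoding RNA gene 5830405F06Rik, which averaged 12.9 ± 3.10 in CDAHFD and 28.2 ± 5.02 normalised counts in ND libraries. Strand and exons were not compared, so whether its reads enter their low counts is not known.

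**Figure D3:**
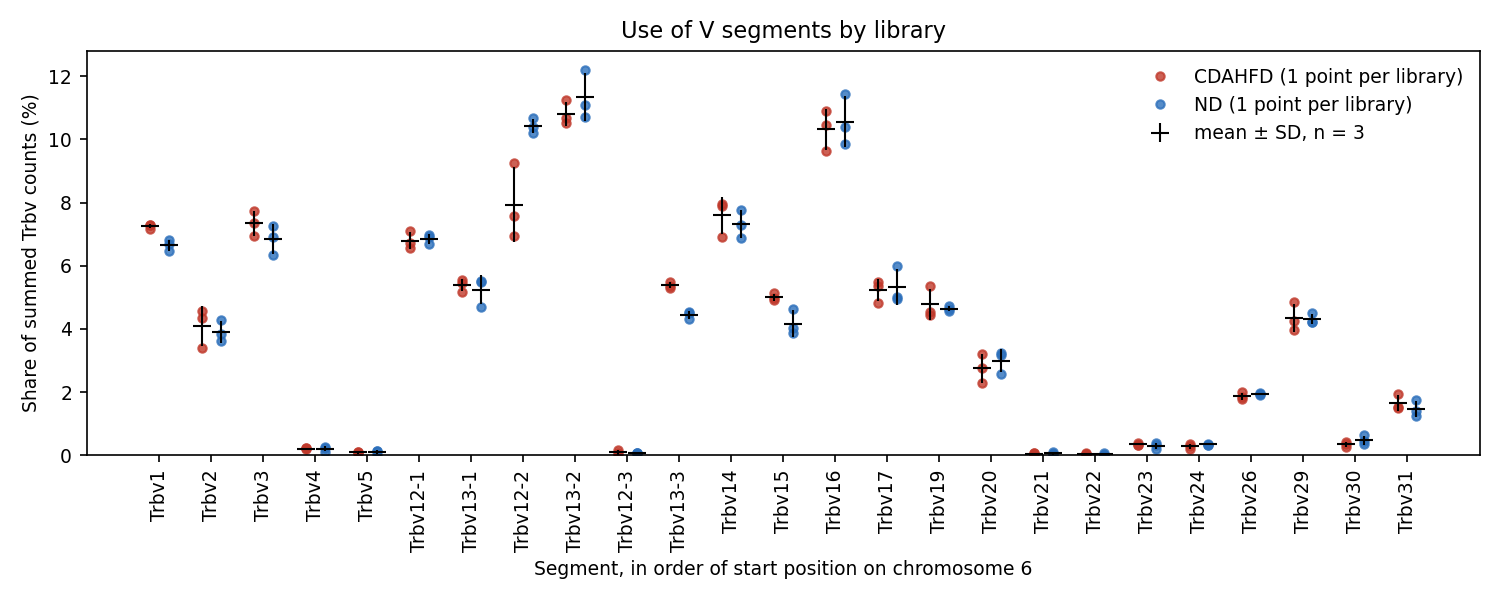
Share of summed V counts taken by each V segment in each library (points) with the mean and SD of 3 libraries, CDAHFD left of ND for each segment, in order of start position on chromosome 6. Trbv12-2 is the segment with all CDAHFD points (6.95 to 9.26%) below all ND points (10.2 to 10.7%), while most other segments overlap.

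The share of V counts was tested by the same fit after each library was scaled to its summed V counts, so that a change in the amount of beta chain transcript cannot move it. By this test 1 V segment fell and 2 rose of the 21 tested. With this scaling 73.5% of all genes tested were called, 71.0% higher and 2.48% lower, since most genes did not share the decrease of the V class; the adjustment over all genes is therefore lenient, and unadjusted p-values are given too. By overlap alone, 21 of 25 V members had overlapping shares, 1 was lower in every CDAHFD library and 3 were higher. The percentage of all genes without overlap at this scaling was not computed. If diet plays no part, 3 against 3 libraries separate fully with a chance of 0.1 per segment. These counts alone are therefore not evidence of a change in use.

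Trbv12-2 was the V segment with the lower share. It took 9.26, 7.59 and 6.95% of V counts in CDAHFD libraries, against 10.7, 10.2 and 10.4% in ND libraries. All CDAHFD shares were lower, and the 3 differed among themselves by more than the ND libraries did. In CDAHFD library 1, with 487 of 5260 V reads, the 95% Wilson interval was 8.50 to 10.1%, and in CDAHFD library 3, with 349 of 5022 V reads, it was 6.28 to 7.69%. In ND library 2, the lowest of its group with 725 of 7108 V reads, it was 9.52 to 10.9%, so that CDAHFD library 1 alone overlapped the ND intervals. These intervals cover counting error only. The share had a log2 fold change of -0.40 (SE 0.10, unadjusted p = 2.23e-04, limma adjusted p = 4.34e-04). It was called under 16 of 16 alternatives, with log2 fold changes of -0.52 to -0.31 and adjusted p-values of 3.89e-09 to 0.00673. The share of its neighbour and closest relative in use, Trbv12-1, was 6.79 ± 0.273% in CDAHFD and 6.85 ± 0.155% in ND libraries, with a log2 fold change of -0.01. The Trbv12 family as a whole took 14.8 ± 1.09% in CDAHFD and 17.3 ± 0.389% in ND libraries, without overlap (exact permutation p = 0.1, the smallest possible).

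Trbv13-3 and Trbv15 had higher shares. Trbv13-3 took 5.29, 5.37 and 5.48% of V counts in CDAHFD libraries, against 4.31, 4.53 and 4.52% in ND libraries. The groups were clear of each other, and the log2 fold change was 0.27 (SE 0.11, unadjusted p = 0.0154, limma adjusted p = 0.0224). Trbv15 took 5.13, 4.97 and 4.92% in CDAHFD libraries, against 3.85, 4.64 and 4.01% in ND libraries, also without overlap, with a log2 fold change of 0.27 (SE 0.11, unadjusted p = 0.0229, limma adjusted p = 0.0323). Both calls were near the threshold. Trbv13-3 was called under 11 of 16 alternatives (adjusted p 0.0136 to 0.0758) and Trbv15 under 8 of 16 (adjusted p 0.0205 to 0.141). Leaving out CDAHFD library 2, ND library 1 or ND library 3 ended both, and leaving out ND library 2 ended that of Trbv13-3. Scaling to constant region counts also ended both, and the call of Trbv15 was lost with DESeq2, with no filter and when libraries were scaled to V counts without Trbv12-2 (adjusted p = 0.058). By level both segments had log2 fold changes of -0.19 that were not called, so their higher share is one of a smaller V total. The Trbv13 family took 21.6 ± 0.281% in CDAHFD and 21.03 ± 0.900% in ND libraries, with overlap (exact permutation p = 0.4). Trbv1 was the other segment whose shares did not overlap, at 7.25 ± 0.0633% in CDAHFD and 6.65 ± 0.180% in ND libraries, and was not called (log2 fold change 0.12, adjusted p = 0.238).

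Evenness of V use was summarised as the effective number of V segments, the exponential of the Shannon entropy of the shares, which equals the number of equally used segments that would give the same entropy. It was 16.4, 16.4 and 16.2 in CDAHFD libraries, against 16.2, 16.1 and 16.1 in ND libraries. The groups did not overlap, and the difference of 0.25 segments reached the smallest exact permutation p possible, 0.1. The 5 most used segments of each library, which were not the same 5 throughout, took 44.3 ± 0.113% in CDAHFD and 46.7 ± 1.10% in ND libraries. These sums also did not overlap (exact permutation p = 0.1). Their difference, CDAHFD minus ND, was -2.39 percentage points, and that of Trbv12-2 alone was -2.49. Both measures depend on the share of Trbv12-2 and neither was computed without it, so they are not separate from its difference. Trbv12-2 was among the 5 in every library except CDAHFD library 3, where it took 6.95%. The largest share of any V segment in any library was 12.2%, that of Trbv13-2 in ND library 1. As a measure of how far V use differed between 2 libraries, chi-square per degree of freedom over 21 segments was 0.903 to 2.29 among CDAHFD libraries, 1.81 to 2.32 among ND libraries and 1.08 to 4.41 between the diets, where 1 is the spread of read sampling. Without Trbv12-2 the range between the diets was 0.981 to 2.51, against 0.864 to 2.40 over pairs of the same diet. For all genes with a mean of at least 20 reads the corresponding values were 2.87 to 6.18 within diets and 73.3 to 82.0 between them. For the same fold difference this measure grows with the number of reads per gene. Many of these genes have far more reads than the V segments, so the 2 sets of values cannot be compared in size.

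**Figure D4:**
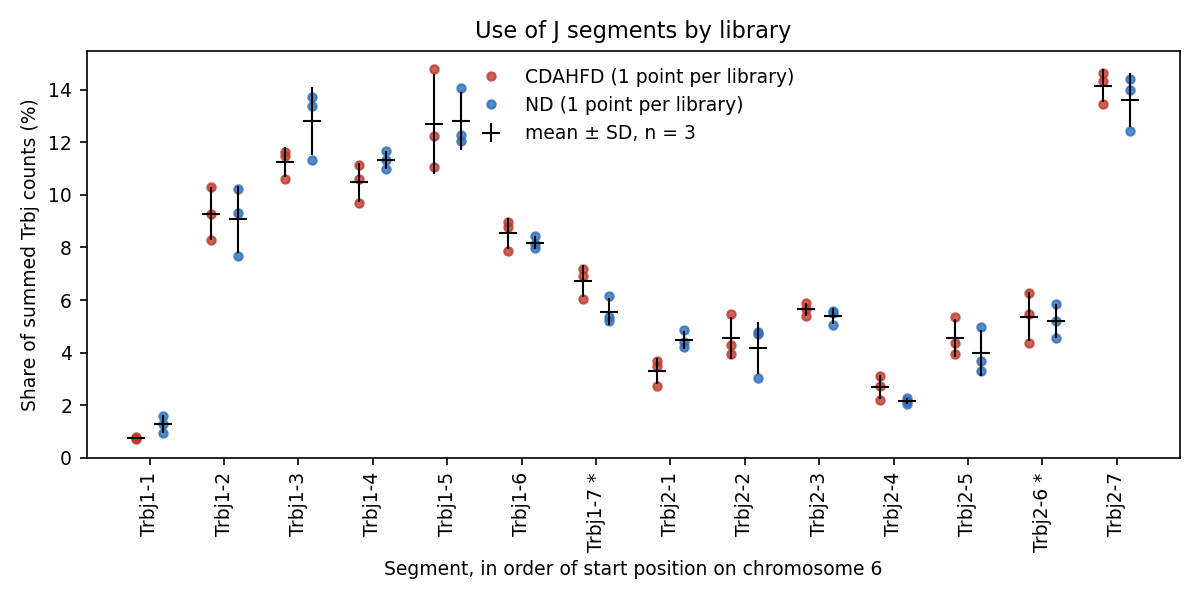
Share of summed J counts taken by each J segment in each library (points) with the mean and SD of 3 libraries, CDAHFD left of ND for each segment, in order of start position on chromosome 6; asterisks mark Trbj1-7 and Trbj2-6. Trbj2-7 has the largest mean share, 14.2% in CDAHFD and 13.6% in ND libraries. Trbj1-1 and Trbj2-1 are the 2 segments whose diets do not overlap, with CDAHFD lower.

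Trbj2-7 had the largest mean share, 14.2 ± 0.617% of J counts in CDAHFD and 13.6 ± 1.04% in ND libraries (SD, n = 3 each). It did not lead in every library. Trbj1-5 was above it in CDAHFD library 2 (14.8 against 14.4%), and Trbj1-3 was above it in ND library 1 (13.7 against 12.4%). Trbj1-5 took 12.7 ± 1.90% in CDAHFD and 12.8 ± 1.10% in ND libraries, and Trbj1-3 took 11.3 ± 0.556% against 12.8 ± 1.29%. Trbj1-4 took 10.5 ± 0.730% in CDAHFD and 11.3 ± 0.337% in ND libraries, Trbj1-2 took 9.28 ± 1.01% against 9.07 ± 1.28%, and Trbj1-6 took 8.53 ± 0.575% against 8.18 ± 0.247%. Each of these 6 overlapped between the diets. The Trbj2 cluster took 40.3 ± 0.363% of J counts in CDAHFD and 39.0 ± 1.83% in ND libraries (exact permutation p = 0.4). Trbc2, which lies behind that cluster, took 62.3% of Trbc counts in CDAHFD and 62.1% in ND libraries. The J counts include segments without the J motif, and how reads were divided between Trbc1 and Trbc2 is not known. Which cluster was used more therefore cannot be read from these counts. The effective number of J segments was 11.9 ± 0.141 in CDAHFD and 11.9 ± 0.160 in ND libraries (exact permutation p = 0.7).

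No J segment passed the test of its share: with libraries scaled to summed J counts, 0 of 14 were called by limma and 1 had an unadjusted p under 0.05, while 51.3% of all genes tested were called, 45.6% higher and 5.73% lower. The counts were also 0 of 14 with edgeR and 0 of 14 with DESeq2. Trbj2-1 took 2.73, 3.50 and 3.68% of J counts in CDAHFD libraries, against 4.20, 4.38 and 4.85% in ND libraries. The groups did not overlap, and the log2 fold change was -0.44 (SE 0.21, unadjusted p = 0.0334, limma adjusted p = 0.0632). Trbj1-1, with 10 to 28 reads per library, took 0.718, 0.798 and 0.762% in CDAHFD libraries, against 0.940, 1.59 and 1.30% in ND libraries. These did not overlap either, and the log2 fold change was -0.68 (SE 0.37, limma adjusted p = 0.12). The remaining 12 J members overlapped. As for V segments, the percentage of all genes without overlap at this scaling was not computed, and the chance of full separation is 0.1 per segment. Chi-square per degree of freedom over the 14 J segments was 0.884 to 2.31 between libraries of the same diet and 1.36 to 2.99 between the diets.

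The 3 segments printed above without the J motif had counts within the range of the other J members. Trbj1-7 took 6.72 ± 0.604% of J counts in CDAHFD and 5.56 ± 0.507% in ND libraries, and Trbj2-6 took 5.37 ± 0.941% against 5.20 ± 0.653%. With Trbj1-6, the 3 took 20.6 ± 1.41% in CDAHFD and 18.9 ± 0.924% in ND libraries, with overlap (exact permutation p = 0.3). Trbj1-7 and Trbj2-6 alone, a pair chosen after the values were seen, took 12.1 ± 0.958% in CDAHFD and 10.8 ± 0.753% in ND libraries, without overlap. Per 100 bases, Trbj1-7 averaged 219 normalised counts and Trbj2-6 averaged 181 over the 6 libraries, against 259 for Trbj1-6 and 485 for Trbj2-7. Without Trbj1-7 and Trbj2-6 the Trbj2 cluster took 39.7 ± 0.871% of J counts in CDAHFD and 37.8 ± 1.65% in ND libraries (exact permutation p = 0.2). The table does not separate reads of joined transcripts from reads of unjoined or unspliced J regions.

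Genes that build the beta chain and genes that neighbour it were at low or mixed levels. Rag1, which cuts the segments during joining, fell to 9.44 ± 4.13 normalised counts in CDAHFD, against 25.5 ± 3.75 in ND libraries (log2 fold change -1.41, SE 0.37, adjusted p = 0.00248). Dntt, which adds bases at the junctions, had 132 ± 9.53 in CDAHFD and 150 ± 4.39 in ND libraries and was not called. Ptcra, the partner of the beta chain in the thymus, averaged 0.352 in CDAHFD and 0.314 in ND libraries, and Rag2 was not among the rows used. Trdc, the constant gene of the delta chain, fell by 0.70 (SE 0.12). Of the 11 genes listed in or beside the locus, 7 had rows and 4 were tested. Ephb6 fell by 0.41 and Trpv6 by 0.95, Kel rose by 2.95 on the log2 scale, and Prss2, a trypsinogen gene, was not called (log2 fold change -0.36). Kel encodes a blood group protein of red cells, and the erythroid markers given above rose with it.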

How the data were processed

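RNA was sequenced from splenic CD8+ T cells in 3 CDAHFD and 3 ND libraries. The authors deposited signal values in 1 table: each library's read counts, scaled by its own factor. Within each column 100% of values were whole multiples of the smallest value above 0 (within 0.001), so whole reads were recovered. Per the submitters' processing notes the build was mm10. Not given in the sources used here are the authors' aligner, counting tool, strand setting and annotation. In its header the table spells the diet CDHFD, and these columns were matched to CDAHFD as the only other group.

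Ensembl IDs were given symbols by a lookup table (26147 of 26181 matched). Segment coordinates, classes, exon lengths and sequences came from GENCODE M21, which lists 35 Trbv genes; 8 of its Trb genes had no row. V and J shares are a segment's counts over the summed counts of its class in the library; comparisons of levels between segments are per 100 bases of exon. The main test was limma 3.58.1 (trend and robust) in R 4.3.3 on log2(normalised count + 1), for 15819 genes with a mean of at least 10, with Benjamini-Hochberg adjustment over all of them and calls at an adjusted p under 0.05; "rose" and "fell" are used of called genes. The scale understates changes of low genes. Share tests repeat this fit after scaling each library to its summed V or J counts. Single values per library were compared with exact two-sided permutation tests over 20 regroupings. As alternatives, edgeR 4.0.16 and DESeq2 1.42.0 were run on recovered reads. The limma script was tested on simulated data. Wilson intervals are at 95%, and floors are 3 reads per library.

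Segments with values were the 10 V and 6 J with the largest mean share, all D and C genes, members called by share and the V at each end of the order of share differences; every other member called by level, and members whose shares did not overlap, were named after their values were seen. The members, lists and tests were chosen with earlier results of these data known. Alternatives were other pseudocounts, filters, scalings and tools, a replicate block and each library left out. No sample was left out.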

Additional observations from a re-analysis of the deposited data

How the results depend on the processing

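The number of beta chain members called by level, 21, was 18 to 21 when each library was left out in turn. It was 5 with libraries scaled to the summed Cd3 chains, where 65.9% of all genes tested were called, against 47.1% in the main fit. That scaling moved the median of all genes to 0.30 and the number of members called by more than any other setting tried. The calls of Trbc2, Trbj1-1, Trbj1-3, Trbj1-4 and Trbv30 were also lost when single libraries were left out. With libraries scaled to the summed Cd3 chains the log2 ratio of summed J counts turned to 0.083. With that scaling, 13 of the 15 members with negative log2 fold changes that were not called by level became positive. Among them were Trbv13-3 0.13, Trbv15 0.13, Trbd1 0.11, Trbj1-2 0.12, Trbj1-5 0.065, Trbj1-6 0.14 and Trbj2-7 0.14. The number of V segments called by share, 3, was 1 with libraries scaled to summed constant region counts, and 1 to 3 when each library was left out. The number of J segments called by share, 0, was 1 (Trbj1-7, 0.50) with scaling to constant region counts, which moved the median of all genes to 0.45. Differences that were small against their spread changed sign when single libraries were left out, CDAHFD minus ND: the Trbc2 share from -1.4 to 2.12 percentage points, the effective number of J segments from -0.0302 to 0.135 and the pseudogene share of V counts from -0.0411 to 0.0174 percentage points. The labels give both diets the numbers 1 to 3 without saying that a number marks a shared animal, litter or day. The deviations of same-numbered libraries correlated at 0.041, -0.051 and 0.062 across 15819 genes, and those of differently numbered libraries at -0.089 to 0.051. With 3 libraries per diet these values do not decide whether the numbers pair the libraries. With the replicate block 21 members were called by level, 2 V segments (Trbv15 was lost) and 0 J segments by share. Depth limits the least used segments most: 3 reads make up 0.0399 to 0.0597% of the V reads of a library.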
